A study of Mus musculus with 32 samples.

Results

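The subunits of oxidative phosphorylation were described here in the livers of mice whose parents had received a low fat or a high fat diet. The members were chosen by gene symbol alone, by a name pattern for nuclear-encoded subunits of respiratory complexes I to IV (Nduf followed by a, b, c, s or v and a number, Sdha to Sdhd, Uqcr, and Cox followed by a number and a, b or c) and of ATP synthase (Atp5). Some subunits, such as Cox4i1, Cox4i2 and Cyc1, do not match it. This gave 75 of the 21115 probe sets, with 36 in complex I, 4 in complex II, 6 in complex III, 15 in complex IV and 14 in complex V, the ATP synthase. All 75 had a RefSeq entry. Of these, 3 carry another symbol in RefSeq: Atp5f1 is Atp5pb, the peripheral stalk subunit b, while Atp5sl (Dmac2) and Atp5s (Dmac2l) are named like subunits but are not subunits there. Ndufa4 and Ndufa4l2 are counted with complex I by their names, although NDUFA4 is known as a subunit of human complex IV.

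Liver expression in 32 male C57Bl/6 offspring (C57Bl/6J in the methods of the study) was read on 1 array per mouse (Affymetrix, Mouse Gene 1.1 ST). The parents were fed either an LF diet (standard chow, 9% of its energy as fat) or an HF diet (45%) from 6 weeks before mating until the end of lactation, and after weaning all offspring, the controls included, ate the HF diet. Livers came from 7 LF/HF and 7 HF/HF offspring of 12 weeks and from 9 LF/HF and 9 HF/HF offspring of 28 weeks of age, where the diet of the parents is named before that of the offspring. Litters were not given, so mice of a group may share parents, and P values then measure only the spread between these mice.

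In oxidative phosphorylation, electrons from NADH and succinate enter the inner mitochondrial membrane through complex I (NADH dehydrogenase) and complex II (succinate dehydrogenase), pass through complex III (the cytochrome bc1 complex) to complex IV (cytochrome c oxidase) and reduce oxygen to water. Complexes I, III and IV pump protons meanwhile, and ATP synthase uses the gradient to make ATP. In the liver this supplies ATP for gluconeogenesis and urea synthesis, and it reoxidizes the NADH that fatty acid oxidation delivers.

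Promoters are shown of a choice of the members named below. Transcription factors of mitochondrial biogenesis are known to bind near the starts of such genes. A window from 250 bases before to 50 bases after the transcription start was present in RefSeq (GRCm38.p6) for 63 of the 75 members. It was searched on both strands for GCGCATGC (NRF1), CCGGAAGT (GABP), AAGATGGC (YY1) and TCAAGGTCA (estrogen-related receptors), and after values were seen for CAGCTG, an E-box as found in muscle genes. No matches of different motifs overlapped. The NRF1 letters were in 8 member windows (12.7%, against 3.05% of 27025 genes), the YY1 letters in 11 (17.5% against 3.19%), the GABP letters in 3 (4.76% against 4.31%), the estrogen-related receptor letters in 2 (3.17% against 0.466%) and the E-box in 6 (9.52% against 18.3%). At least 1 of the first 4 motifs was found in 24 windows. Capitals mark the matches. Ndufa11, an accessory subunit of complex I that met the study criterion between the ages, lies on the plus strand at chr17:56717512-56717811, and its NRF1 letters match on both strands, starting at position -60 from the transcription start. Uqcrc1, a core protein of complex III, lies on the plus strand at chr9:108936398-108936697 with the same palindromic run at position 30. Ndufc1, a small subunit of the membrane arm of complex I, lies on the minus strand at chr3:51408906-51409205 with the YY1 letters at position 22. Cox7a1 at chr7:30183921-30184220 (plus strand) and Cox8b at chr7:140900397-140900696 (minus strand) encode the muscle forms of complex IV subunits. Cox7a1 held none of the motifs, and Cox8b held the E-box 2 times. Ndufb6, Cox5b, Ndufa5 and Atp5b, also named below, are not shown. No motif was found for Ndufb6, Cox5b or Ndufa5, and only the E-box for Atp5b.
Ndufa11: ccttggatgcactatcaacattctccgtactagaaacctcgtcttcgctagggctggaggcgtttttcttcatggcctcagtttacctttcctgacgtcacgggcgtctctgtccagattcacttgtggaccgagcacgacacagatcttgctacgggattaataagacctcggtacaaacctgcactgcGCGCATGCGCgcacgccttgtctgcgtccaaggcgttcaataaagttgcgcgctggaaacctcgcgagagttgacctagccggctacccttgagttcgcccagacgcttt
Uqcrc1: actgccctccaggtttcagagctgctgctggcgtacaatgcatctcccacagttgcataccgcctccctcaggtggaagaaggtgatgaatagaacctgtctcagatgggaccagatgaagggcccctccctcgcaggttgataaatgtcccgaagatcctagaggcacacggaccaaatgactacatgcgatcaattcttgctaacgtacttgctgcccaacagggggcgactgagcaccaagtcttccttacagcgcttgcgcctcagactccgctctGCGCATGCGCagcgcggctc
Ndufc1: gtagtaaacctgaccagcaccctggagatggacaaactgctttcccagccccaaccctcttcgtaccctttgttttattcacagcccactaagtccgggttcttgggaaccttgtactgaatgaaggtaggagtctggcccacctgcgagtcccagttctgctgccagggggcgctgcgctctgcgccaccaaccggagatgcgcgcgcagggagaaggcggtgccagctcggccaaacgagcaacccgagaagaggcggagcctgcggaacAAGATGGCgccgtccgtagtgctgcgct
Cox7a1: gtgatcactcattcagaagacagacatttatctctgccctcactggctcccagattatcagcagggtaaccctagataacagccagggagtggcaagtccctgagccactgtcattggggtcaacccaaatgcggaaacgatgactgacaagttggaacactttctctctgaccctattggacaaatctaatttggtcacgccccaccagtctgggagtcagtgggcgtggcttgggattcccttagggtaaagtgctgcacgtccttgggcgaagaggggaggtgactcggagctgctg
Cox8b: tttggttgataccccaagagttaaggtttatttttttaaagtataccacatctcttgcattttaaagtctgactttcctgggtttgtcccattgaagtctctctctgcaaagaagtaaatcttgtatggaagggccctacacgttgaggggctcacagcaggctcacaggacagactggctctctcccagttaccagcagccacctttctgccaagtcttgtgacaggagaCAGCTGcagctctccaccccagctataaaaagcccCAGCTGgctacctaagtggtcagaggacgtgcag

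Array medians lay between 8.37 and 9.39 on the linear intensity scale, no pair of arrays held identical values, and the highest correlation between 2 arrays was 0.992. Array names fell into 2 series, with 3 to 5 mice of each group in each. The 6 hepatocyte markers measured had mean log2 levels of 12.7 to 12.9 in every group. Fewer cells of a type and less RNA per cell cannot be told apart in such whole-liver RNA. The mean of 15 skeletal muscle markers (Acta1, Ckm and Mb among them) was 8.76 in LF/HF replicate 1 of 12 weeks, 6.13 in LF/HF replicate 8 of 28 weeks and 4.14 in HF/HF replicate 3 of 12 weeks, against 2.20 to 2.68 in the other 29 mice. The mean of 6 adipocyte markers was also highest in LF/HF replicate 1 of 12 weeks, at 3.15 against 2.50 in the next mouse of its group, with Cfd (adipsin) at 5.37 against 3.21. LF/HF replicate 8 had the highest such mean of its group, 2.75 against 2.63, and HF/HF replicate 3 did not. Cfd was also at 5.37 in HF/HF replicate 7 of 28 weeks, whose muscle marker mean was 2.39. Among LF/HF offspring of 12 weeks, Lep and Ucp1 were highest in replicates 2 and 3. The part of adipose tissue in the results was not tested.

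The 3 members that stood apart in each of these mice were the muscle isoforms of complex IV. Cox6a2, the heart and skeletal muscle form of subunit 6a, was at 7.30, 5.68 and 3.58 on the log2 scale in those 3 mice in the same order, while the other 29 mice ranged from 2.47 to 3.55 with a median of 2.94. Cox7a1, the muscle form of subunit 7a, was at 7.64, 5.52 and 4.33, against 2.91 to 4.14 with a median of 3.70 in the other mice. Cox8b, the muscle form of subunit 8, was at 8.0, 5.52 and 2.78, against 1.61 to 2.66 with a median of 2.07. All 3 genes were thus higher in each of these mice than in any other mouse. The medians of Cox6a2 and Cox8b in the other mice lay below the array medians (3.07 to 3.23 on the log2 scale), and no ratio to them is given since background was not analysed here. The liver forms of the same subunits varied less: Cox6a1 ranged from 9.85 to 10.27, Cox7a2 from 7.34 to 7.85 and Cox8a from 8.12 to 9.10 over all 32 mice. In the 3 mice, in the same order, they were at 10.19, 10.04 and 10.22 (Cox6a1), 7.54, 7.36 and 7.85 (Cox7a2) and 8.85, 8.52 and 8.80 (Cox8a). Cox7a2 was thus highest of all mice in HF/HF replicate 3, and Cox8a highest of its group in LF/HF replicate 1. No other member lay above the 29 other mice in all 3. In LF/HF replicate 1, Cox6b1, Ndufa3 and Ndufs7 also lay above the 29 and Sdhd below them. Below them lay also Atp5sl and Ndufa7 in HF/HF replicate 3 and Ndufa2 in LF/HF replicate 8.

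**Figure D1:**
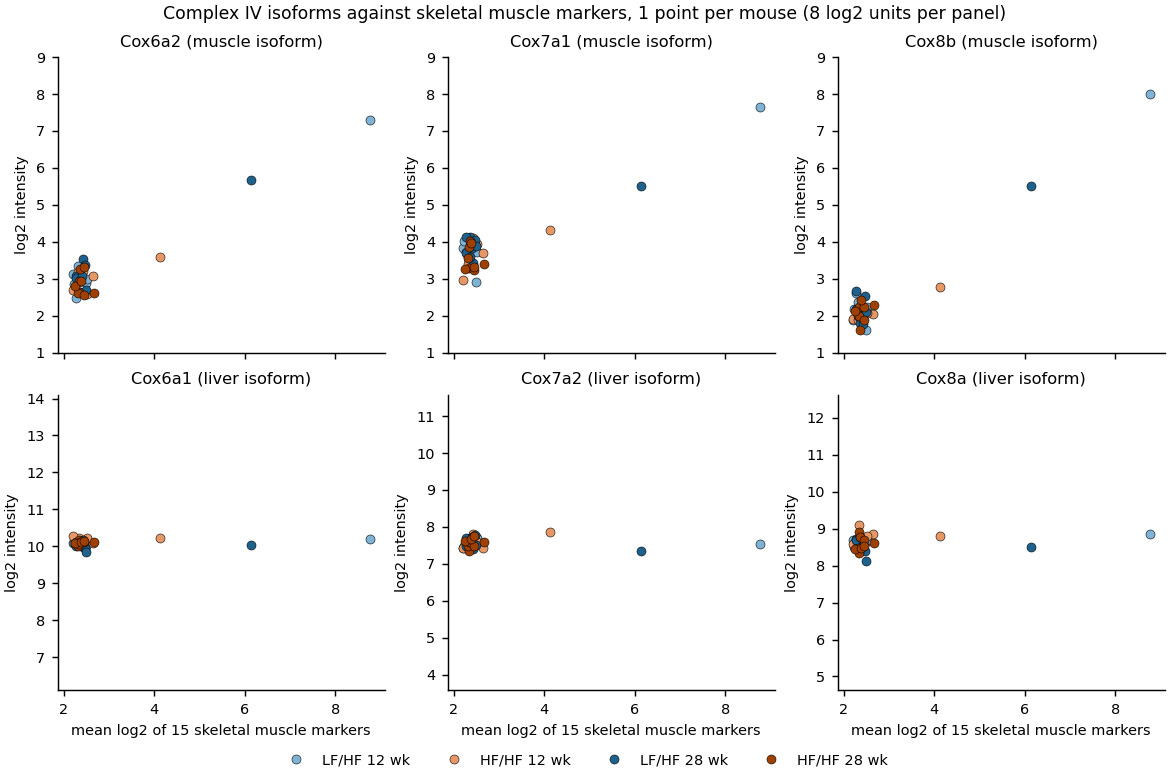
Level (log2 intensity) of the muscle isoforms Cox6a2, Cox7a1 and Cox8b (top) and the liver isoforms Cox6a1, Cox7a2 and Cox8a (bottom) against the mean log2 of 15 skeletal muscle markers. Each point is 1 mouse, and every panel spans the same number of log2 units. The mice with marker means of 4.14, 6.13 and 8.76 hold the highest values of the muscle isoforms, and the liver isoforms span at most 8.12 to 9.10 (Cox8a).

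Differences of the muscle isoforms with the parental diet were smaller without these 3 mice, though that of Cox7a1 at 28 weeks kept more of its size. At 12 weeks Cox8b was -0.86 ± 0.598 (SE) in HF/HF compared with LF/HF offspring (adjusted p = 0.999, limma), and -0.13 ± 0.152 without the 3 mice. The difference of Cox6a2 was -0.53 with all mice and -0.0024 without them, and that of Cox7a1 was -0.50 and -0.034. At 28 weeks the values were -0.49 and -0.20 for Cox6a2, -0.49 and -0.30 for Cox7a1, and -0.43 and -0.057 for Cox8b. Only that of Cox7a1 at 28 weeks was below 0.05 in the two-sided exact permutation test (p = 0.026, and adjusted p = 0.947 in limma). Its limma P fell from 0.187 with all mice to 0.0623 without the 3 and to 0.0227 without LF/HF replicate 1 of 12 weeks alone, which lowers the shared spread. The difference was -0.16 in the first array series and -0.83 in the second. Their standard deviation within groups fell from 0.941 to 0.288 for Cox6a2, from 0.837 to 0.337 for Cox7a1 and from 1.22 to 0.274 for Cox8b.

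Of the members, 1 of 75 differed with the parental diet at 12 weeks at an unadjusted P under 0.05, and it was higher in HF/HF offspring. This share is set against 2.41% of all probe sets that were higher and 2.32% that were lower. The study criterion, P under 0.05 with a fold change over 1.2 in either direction, was met by 0 members and by 2.92% of all probe sets, and an adjusted p under 0.05 by 0 members and 0% of all probe sets (limma, Benjamini-Hochberg over 21115). Signs were uneven: 55 members were higher and 20 lower in HF/HF offspring, with a median log2 difference of 0.033, beside 0.00039 over all probe sets. The split was 38 higher and 37 lower in the first array series (median 0.0059) and 54 and 21 in the second (0.065). By complex, 30 of 36 members were higher in complex I, 2 of 4 in complex II, 6 of 6 in complex III, 8 of 15 in complex IV and 9 of 14 in complex V. Of the 75 mitochondrial ribosomal proteins, which are also encoded in the nucleus and imported, 37 were higher. The 95% interval of the difference stayed within 1.2-fold in both directions for 41 members (54.7%), and for 26.3% of all probe sets. At an unadjusted P under 0.05 there were 4 members without LF/HF replicate 4, 2 without HF/HF replicate 2, and 0 without LF/HF replicates 1, 2 or 5 or HF/HF replicate 4.

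The member past P at 12 weeks was Ndufb6, an accessory subunit in the membrane arm of complex I. LF/HF offspring ranged from 7.93 to 8.20 around a median of 8.08 on the log2 scale, and HF/HF offspring from 8.20 to 8.28 around 8.23. Every HF/HF mouse lay above every LF/HF mouse, which held for 1 of 75 members and 0.0189% of all probe sets (0.0568% in either direction). The difference was 0.17 ± 0.077 (SE), 1.13-fold, with P = 0.0348 and an adjusted p of 0.999 in limma, and p = 0.000583 in an exact permutation test (two-sided), the smallest that these group sizes can give. The limma P rose above 0.05, to at most 0.0766, without LF/HF replicates 1, 2 or 5 or HF/HF replicates 4 or 6, and to 0.0624 without the 3 mice with muscle markers. Within the array series the difference was 0.20 (first) and 0.15 (second).

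At 28 weeks no member passed the threshold for the parental diet, with 0 of 75 higher and 0 lower at an unadjusted P under 0.05 (limma), against 2.40% and 2.73% of all probe sets. The study criterion was met by 0 members and 2.15% of all probe sets, an adjusted p under 0.05 by 0 members and 0% of them, and 0 members and 0% of all probe sets had groups without overlap. Of the members 52 were lower in HF/HF offspring and 23 higher (69.3% lower, beside 51.4% of all probe sets), with a median of -0.023 beside -0.0036. The sign differed between the array series, with 55 lower in the first (median -0.088) and 31 lower in the second (median 0.016). Complex I had 28 of 36 members lower with a median of -0.054, and complex IV 11 of 15 with a median of -0.081. The 11 include the muscle isoforms Cox6a2, Cox7a1 and Cox8b, which were high in LF/HF replicate 8 and are counted with complex IV in every comparison. In complex II 1 of 4 was lower, in complex III 4 of 6 and in complex V 8 of 14. The mitochondrial ribosomal proteins had 55 of 75 lower with a median of -0.078. Intervals stayed within 1.2-fold for 45 members (60%) and for 38.4% of all probe sets. The count of 0 depended on single mice, with 6 members at an unadjusted P under 0.05 without LF/HF replicate 8, which carried muscle markers, 5 without HF/HF replicate 9, 3 without LF/HF replicate 4, 3 without HF/HF replicate 5, 2 without HF/HF replicates 2, 3 or 8, and 1 without LF/HF replicates 1, 5 or 7 of 28 weeks or, through the shared spread, LF/HF replicates 1, 3 or 5 or HF/HF replicate 3 of 12 weeks.

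Closest to the threshold at 28 weeks was Ndufa4l2, a paralogue of Ndufa4 known to be induced by hypoxia, at -0.27 with a 95% interval of -0.54 to 0.0049. Its levels were low, at 2.77 to 4.03 over all mice, beside array medians of 3.07 to 3.23 on the log2 scale. Ndufc1 followed at -0.14 (-0.29 to 0.006), with an adjusted p of 0.934 for both. Ndufa5, an accessory subunit of the matrix arm of complex I, was at -0.26 (-0.57 to 0.059). In all 3 the groups overlapped.

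Between the ages, 39 members had a higher mean in HF/HF offspring at 12 weeks and a lower one at 28 weeks, 16 were higher at both ages, 13 lower at both, and 7 lower and then higher. The difference of the diet effects (28 minus 12 weeks) had an unadjusted P under 0.05 for 0 members in the positive and 1 in the negative direction, against 2.18% and 2.60% of all probe sets. The study criterion was met by 0 members and 4.19% of all probe sets, and an adjusted p under 0.05 by 0 and 0%. In complex I 31 of 36 members had a negative difference, with a median of -0.088. The medians were -0.050 over all members (-0.091 in the first and -0.020 in the second array series), -0.0032 over all probe sets and -0.067 over the mitochondrial ribosomal proteins. Without single mice the count of 1 became 6 (HF/HF replicate 9 of 28 weeks or LF/HF replicate 4 of 12 weeks), 5 (HF/HF replicate 3 or LF/HF replicates 4 or 8 of 28 weeks), 4 (HF/HF replicate 8 of 28 weeks, or LF/HF replicate 2 or HF/HF replicate 6 of 12 weeks), 3 (LF/HF replicate 1 of 12 weeks or 2, 5 or 6 of 28 weeks) or 2 (HF/HF replicates 2 or 4 or LF/HF replicate 6 of 12 weeks, or LF/HF replicates 1 or 9 or HF/HF replicate 5 of 28 weeks). The 1 member was again Ndufb6, at -0.25 ± 0.103 (SE) with an adjusted p of 0.974. The limma P was 0.0186, and no exact test was run for this difference. At 28 weeks its LF/HF levels ran from 8.05 to 8.43 around a median of 8.22 and its HF/HF levels from 7.83 to 8.50 around 8.13, so the LF/HF range lay inside the other. The diet difference at that age was -0.08 (adjusted p = 0.953). The difference of the effects was -0.38 in the first array series and -0.14 in the second. Just outside the limit lay Ndufa5 (-0.47), Ndufa11 (-0.23), Ndufa4l2 (-0.40) and Cox5b (-0.37), each with an adjusted p of 0.974.

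**Figure D2:**
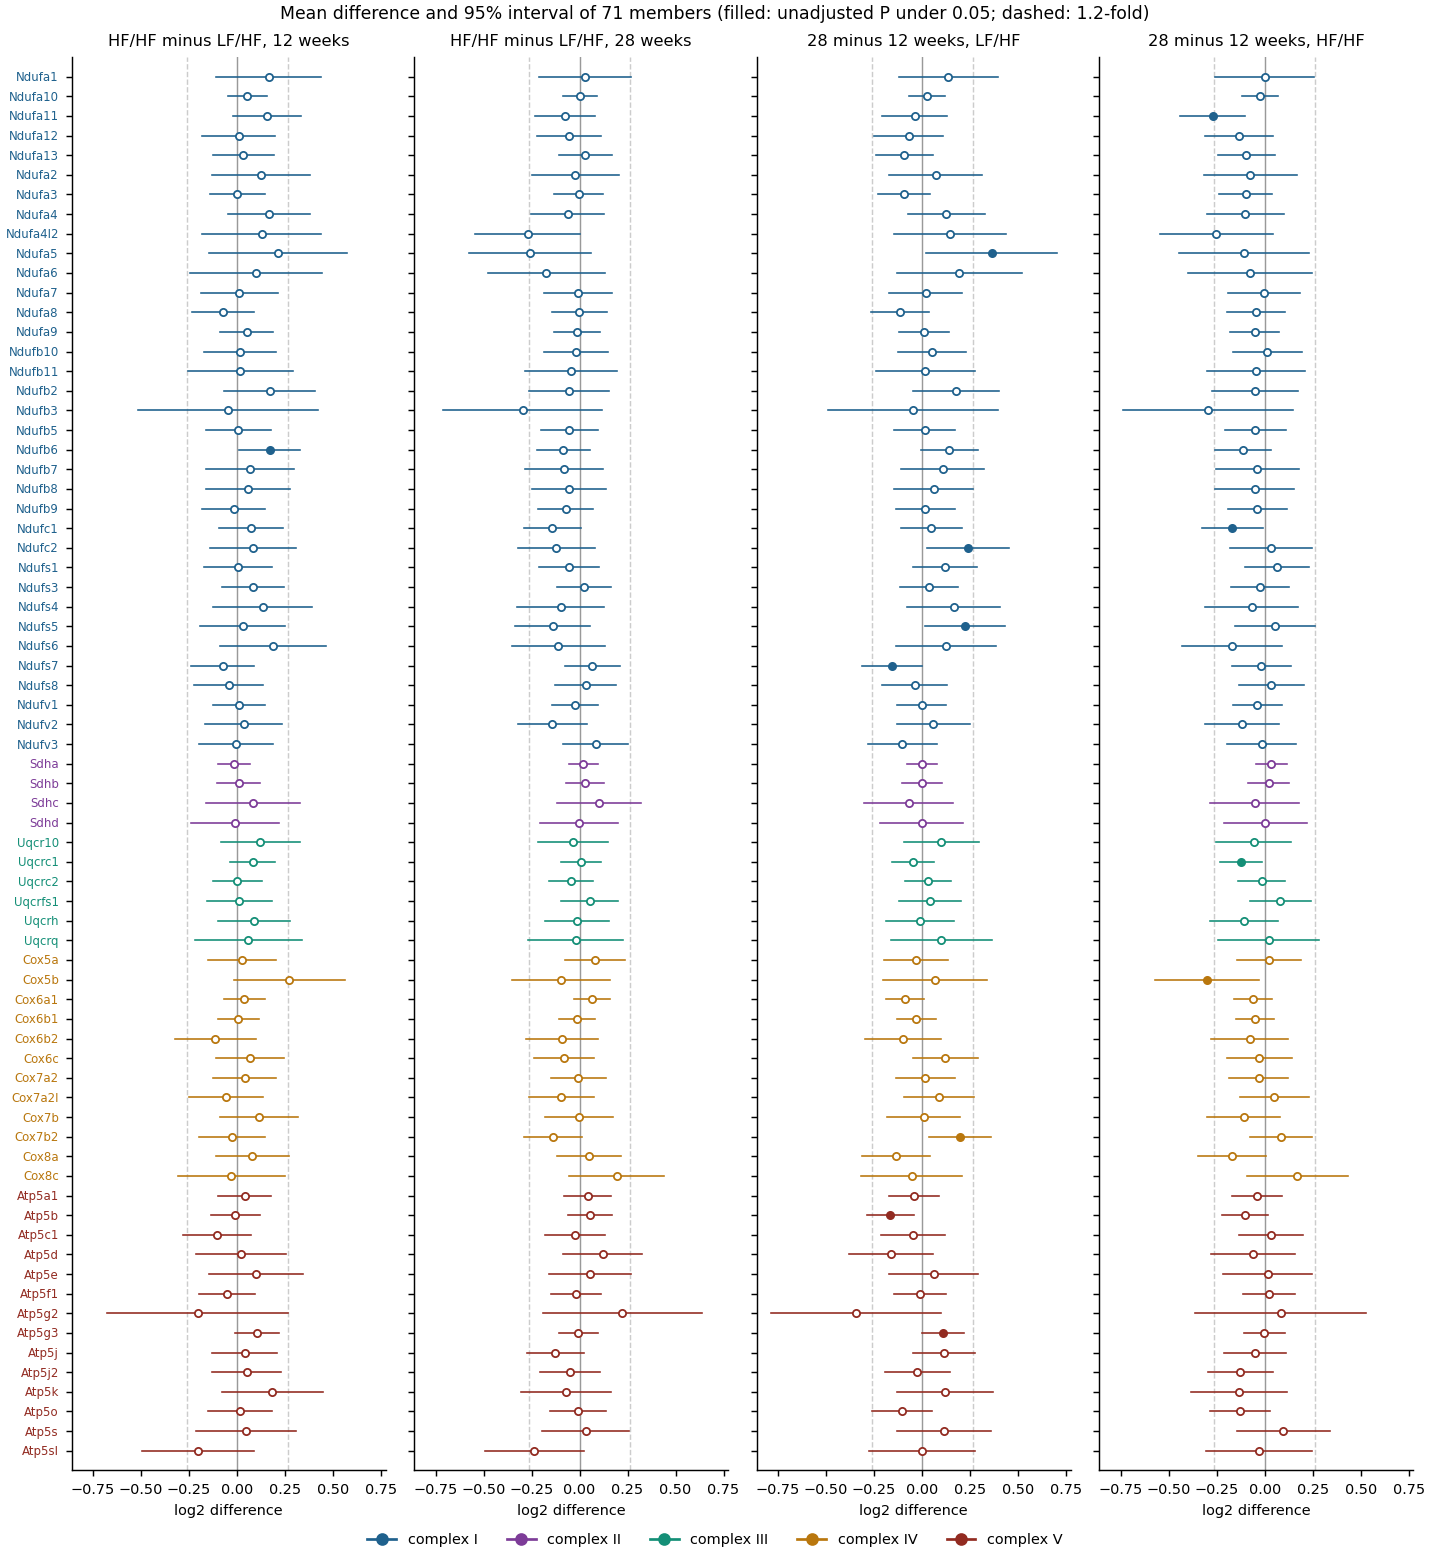
Mean log2 difference (horizontal axis) with its 95% interval for 71 members (rows, coloured by complex), in the comparisons of diet at 12 and 28 weeks and of age in LF/HF and HF/HF offspring. The 3 muscle isoforms and 1 further member are not drawn, filled points have an unadjusted P under 0.05, and dashed lines mark a 1.2-fold change. Complex I lies mostly right of 0 at 12 weeks (30 of all 36 members) and left of 0 at 28 weeks (28 of 36).

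In HF/HF offspring 4 members were lower at 28 than at 12 weeks and 0 higher at an unadjusted P under 0.05, that is 5.33% lower against 3.88% of all probe sets, and 0% higher against 3.32%. The study criterion was met by 2 members (2.67%) and 4.10% of all probe sets. An adjusted p under 0.05 was reached by 0 members and 0.0474% of all probe sets, and groups without overlap by 0 members and 0.0758%. Of all members 54 were lower with age (72% against 48.8% of all probe sets), among them 29 of 36 in complex I, 1 of 4 in complex II, 4 of 6 in complex III, 11 of 15 in complex IV and 9 of 14 in complex V. The median was -0.045 (-0.099 in the first and -0.012 in the second array series), beside 0.0032 over all probe sets and 0.014 over the mitochondrial ribosomal proteins. The 4 members past P became 7 without replicate 9 of 28 weeks, 2 without replicate 2 of 12 or of 28 weeks, and 1 without replicate 4 of 28 weeks.

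Ndufa11, in the membrane arm of complex I, had the smallest P of these. Its levels were 7.64 to 7.79 (median 7.72) in HF/HF offspring of 12 weeks and 7.17 to 7.81 (median 7.45) at 28 weeks. At 28 weeks 8 of 9 mice lay below the lowest and 1 above the highest mouse of 12 weeks. It fell by 0.27 ± 0.0825 (SE) on the log2 scale, 1.21-fold, with P = 0.0024 and an adjusted p of 0.347 (limma), and p = 0.00402 by exact permutation, two-sided. The difference was -0.39 in the first array series and -0.17 in the second, where the limma P was above 0.05. Leaving out single mice left P at 0.00674 or below.

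Cox5b, a subunit on the matrix side of complex IV, ranged from 9.02 to 9.95 (median 9.48) at 12 weeks and from 8.77 to 9.66 (median 9.13) at 28 weeks in HF/HF offspring. The ranges overlapped widely, and 6 of 9 older mice lay below the median of the younger group. The difference was -0.30 ± 0.134 (SE), 1.23-fold, with P = 0.0314 and an adjusted p of 0.634, and p = 0.0634 by exact permutation, two-sided. It was -0.53 in the first array series and -0.029 in the second. Without the 3 mice with muscle markers it was -0.26, with a limma P above 0.05. P also rose above 0.05, to at most 0.104, without HF/HF replicates 1 or 3 of 12 weeks or 4, 5 or 6 of 28 weeks.

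Smaller decreases were seen in Uqcrc1 and Ndufc1. Uqcrc1 ranged from 9.09 to 9.38 (median 9.27) at 12 weeks and from 9.02 to 9.27 (median 9.14) at 28 weeks, with a difference of -0.12 ± 0.0542 (SE, P = 0.0289, and 0.0118 by exact permutation). Ndufc1 ranged from 8.42 to 8.73 (median 8.55) and from 8.09 to 8.63 (median 8.38), with a difference of -0.17 ± 0.0778 (P = 0.0374, and 0.0359 by exact permutation). In both the ages overlapped and neither reached 1.2-fold. Both differences were smaller in the second array series, at -0.056 for Uqcrc1 and -0.12 for Ndufc1, than in the first, at -0.19 and -0.24. Uqcrc1 passed 0.05, to at most 0.075, without HF/HF replicates 2 or 5 of 12 weeks or 2 or 4 of 28 weeks, and to 0.0515 without the mice with muscle markers. Ndufc1 did so, to at most 0.0939, without replicates 2, 5 or 7 of 12 weeks or 1, 2 or 4 of 28 weeks.

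Beside these values, the 4 macrophage markers measured were all lower at 28 weeks in both diet groups, with Clec4f, a Kupffer cell lectin, at -0.33 (adjusted p = 0.405) in HF/HF and Csf1r at -0.34 (adjusted p = 0.405) in LF/HF offspring. The mean log2 level of the 4 ranged from 5.74 to 6.80 at 12 weeks and from 5.28 to 6.05 at 28 weeks in HF/HF, and from 5.86 to 6.65 and 5.20 to 6.35 in LF/HF offspring. Of the 6 hepatocyte markers 5 were lower with age in both diet groups, by 0.10 on the log2 scale for Ahsg. Their part in the differences of the members was not tested.

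**Figure D3:**
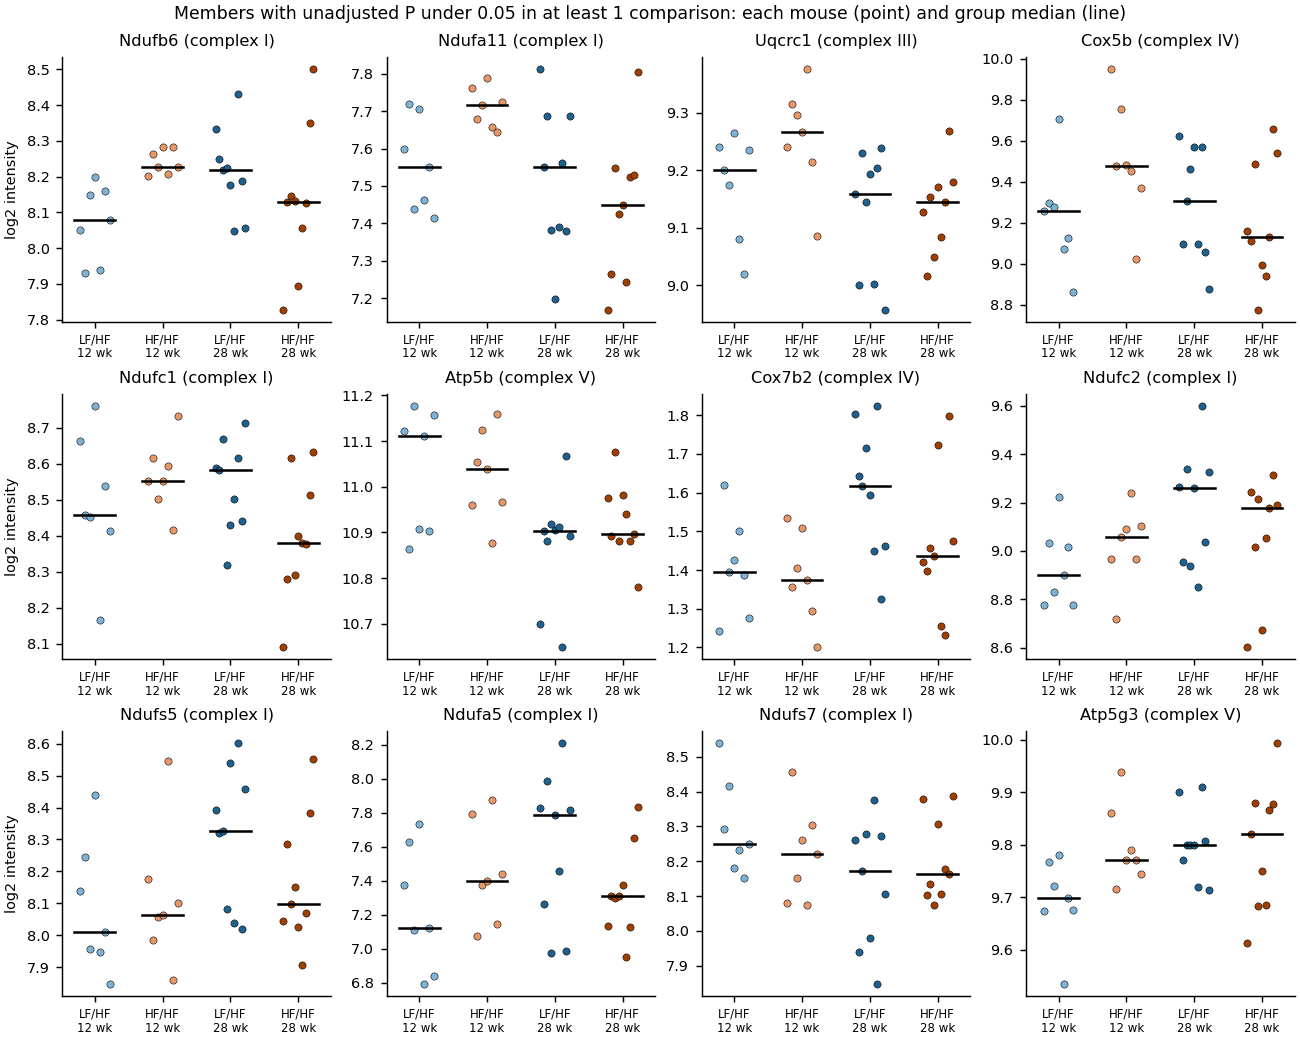
Level (log2 intensity, vertical axes that do not start at 0) of the 12 members with an unadjusted P under 0.05 in at least 1 comparison, in the 4 groups of offspring. Points are mice and lines are group medians. Ndufb6 is the member in which HF/HF and LF/HF mice of 12 weeks do not overlap, and HF/HF medians of Ndufa11 fall from 7.72 to 7.45 between the ages.

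In LF/HF offspring 5 members were higher and 2 lower at 28 weeks at an unadjusted P under 0.05. These are 6.67% and 2.67% of the members, against 6.17% and 6.02% of all probe sets. The study criterion was met by 1 member (Ndufa5) and 7.22% of all probe sets, an adjusted p under 0.05 by 0 members and 0.786%, and groups without overlap by 0 members and 0.332%. Of all members 42 were higher (56%) and 33 lower, with a median of 0.015 (0.0074 in the first and 0.025 in the second array series) beside 0.012 over all probe sets. Probe sets at or above the median level, which include 70 of the members, had a median of -0.023, with 44.4% higher. Complex I had 26 of 36 members higher, complex II 0 of 4, complex III 4 of 6, complex IV 6 of 15 and complex V 6 of 14. The mitochondrial ribosomal proteins had 60 of 75 higher with a median of 0.079. The 7 members past P became 2 without replicate 3 of 12 weeks, 3 without replicates 1 or 7 of 12 weeks or 5 or 7 of 28 weeks, and 4 without replicate 5 of 12 weeks or 1, 3 or 9 of 28 weeks.

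Among the complex I members, Ndufa5 ranged from 6.79 to 7.73 (median 7.12) in LF/HF offspring of 12 weeks and from 6.97 to 8.21 (median 7.78) at 28 weeks. The ages overlapped, with 4 of 9 older mice inside the younger range of values. The difference was 0.36 ± 0.167 (SE), 1.28-fold, with P = 0.0371, adjusted p = 0.367, and p = 0.102 by exact permutation, two-sided. It was 0.20 in the first array series and 0.50 in the second, and P reached 0.102 at most without 12-week replicates 3, 5, 6 or 7 or 28-week replicates 1, 3, 5, 7 or 9.

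Ndufc2 and Ndufs5, accessory subunits of the membrane arm, were higher at 28 weeks in LF/HF offspring. Ndufc2 ranged from 8.78 to 9.22 (median 8.90) and then from 8.85 to 9.60 (median 9.26), and Ndufs5 from 7.85 to 8.44 (median 8.01) and then from 8.02 to 8.60 (median 8.33). Both overlapped between the ages. The differences were 0.24 ± 0.105 for Ndufc2 (P = 0.0295, exact permutation p = 0.0427) and 0.22 ± 0.103 for Ndufs5 (P = 0.0356, exact permutation p = 0.0551). Ndufs7, the core subunit that holds the last iron-sulfur cluster before ubiquinone, was lower instead, from 8.15 to 8.54 (median 8.25) at 12 weeks to 7.85 to 8.37 (median 8.17) at 28 weeks, a difference of -0.16 ± 0.0762 (P = 0.0464, exact permutation p = 0.0764). These P values passed 0.05 without 6 mice for Ndufc2 (LF/HF replicates 1, 3 or 7 of 12 weeks and 3, 7 or 9 of 28 weeks, to at most 0.0765), without 8 for Ndufs5 (3, 5, 6 or 7 and 1, 5, 7 or 9, to at most 0.091) and without 7 for Ndufs7 (1, 2 or 3 and 2, 5, 7 or 9, to at most 0.141). Ndufs7 was at -0.29 in the first array series and -0.053 in the second. Without the mice with muscle markers the limma P was 0.0555 for Ndufc2 and 0.104 for Ndufs7.

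In ATP synthase, Atp5b, which encodes the catalytic beta subunit, ranged from 10.86 to 11.18 (median 11.11) at 12 weeks and from 10.65 to 11.07 (median 10.90) at 28 weeks in LF/HF offspring. The ages overlapped, but 9 of 9 older mice lay below the median of the younger group. It fell by 0.16 ± 0.0597 (SE) on the log2 scale (P = 0.00937, adjusted p = 0.221, exact permutation p = 0.0225), with -0.19 in the first and -0.14 in the second array series, and P was at most 0.0297 without any single mouse. In HF/HF offspring the difference was -0.10 (adjusted p = 0.781), with levels of 10.88 to 11.16 and 10.78 to 11.08.

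Atp5g3, 1 of the genes for the membrane ring subunit c, was higher by 0.11 ± 0.0528 at 28 weeks in LF/HF offspring (P = 0.0471, exact permutation p = 0.00664). It ranged from 9.53 to 9.78 (median 9.70) and then from 9.71 to 9.91 (median 9.80), and the groups overlapped. P lay above 0.05 without any of 16 mice taken singly, to at most 0.136, namely LF/HF replicates 1, 3, 5, 6 or 7 of 12 weeks and 1, 3, 4, 5, 7 or 8 of 28 weeks, and HF/HF replicates 4, 5 or 6 of 12 weeks and 2 or 5 of 28 weeks. Without the mice with muscle markers P was 0.0772. Atp5g2, another subunit c gene, ranged from 3.24 to 5.32 over all mice. Cox7b2, a paralogue of the complex IV subunit gene Cox7b, differed by 0.20 ± 0.08 (P = 0.0191, exact permutation p = 0.0247), at the low levels of 1.24 to 1.62 (median 1.39) and 1.32 to 1.82 (median 1.62), with a limma P of 0.0503 without LF/HF replicate 1 of 12 weeks and differences of 0.26 in the first and 0.12 in the second array series.

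Apart from Ndufs7, Uqcrc1 and Atp5b, which were past P with age, the core subunits named next had no P under 0.05. Sdha, the flavoprotein of complex II, ranged from 10.36 to 10.54 over all 32 mice, and its group medians lay between 10.42 and 10.46. Sdhb, the iron-sulfur subunit, ranged from 9.45 to 9.77, while the membrane anchors Sdhc and Sdhd ranged from 8.45 to 9.24 and from 8.53 to 9.46. No complex II member had P under 0.05 in any comparison. This also held for the core subunits Ndufv1, Ndufv2, Ndufs1, Ndufs3 and Ndufs8 of complex I, of which Ndufv2, that binds an iron-sulfur cluster, had the widest differences, -0.14 at 28 weeks (adjusted p = 0.936) and -0.18 for the difference of the diet effects (adjusted p = 0.974). Uqcrfs1, the Rieske iron-sulfur protein, Uqcrc2, Atp5a1 (subunit alpha of ATP synthase) and Atp5c1 (subunit gamma) also had no P under 0.05, with levels of 7.67 to 8.36, 9.16 to 9.62, 10.63 to 11.05 and 8.61 to 9.40 over all mice. Within groups the median standard deviation of the members was 0.174, beside 0.221 over all probe sets, and it was under 0.1 in 7 members (9.33%) and 0.867% of all probe sets.

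Many members, though not those of complex II as a whole, varied together from mouse to mouse. Counts over all probe sets in the same mice are not given. Replicate 7 of the LF/HF offspring of 28 weeks lay above its group median in 55 of 75 members and was the highest of its group in 35. Replicate 9 of the HF/HF offspring of 28 weeks did so in 57 and 34. At the other end, replicates 6 of both 28-week groups lay above the median in 13 (LF/HF) and 12 (HF/HF) members. At 12 weeks the counts ran from 9 in replicate 5 to 49 in replicate 4 of the LF/HF and from 18 in replicate 6 to 45 in replicate 5 of the HF/HF offspring. The largest shifts upward were shared in part: replicate 7 exceeded its group mean by 0.65 on the log2 scale in Atp5e (subunit epsilon of ATP synthase), Ndufa2 and Uqcrq and by 0.63 in Ndufb3 and Ndufb11, and replicate 9 by 0.61 in Uqcrq, 0.56 in Ndufa1 and 0.50 in Ndufa5 and Ndufa6. Ndufs7 (-0.29) and Sdhc (-0.32) in replicate 7 and Sdhd (-0.30) in replicate 9 lay on the other side. Mean levels of complex I per mouse ranged from 7.61 to 7.94 (LF/HF) and 7.73 to 7.93 (HF/HF) at 12 weeks, and from 7.68 to 8.05 and 7.59 to 7.98 at 28 weeks, so that all groups overlapped. At 28 weeks replicate 7 of LF/HF and replicate 9 of HF/HF had the highest complex I means of their groups. Their complex II means were 9.33 and 9.42, low in the group ranges of 9.30 to 9.62 (LF/HF) and 9.39 to 9.57 (HF/HF). The median array intensity of 28-week mice ranged from 8.54 to 8.79 (LF/HF) and 8.41 to 8.89 (HF/HF), and its part in these shifts was not tested.

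**Figure D4:**
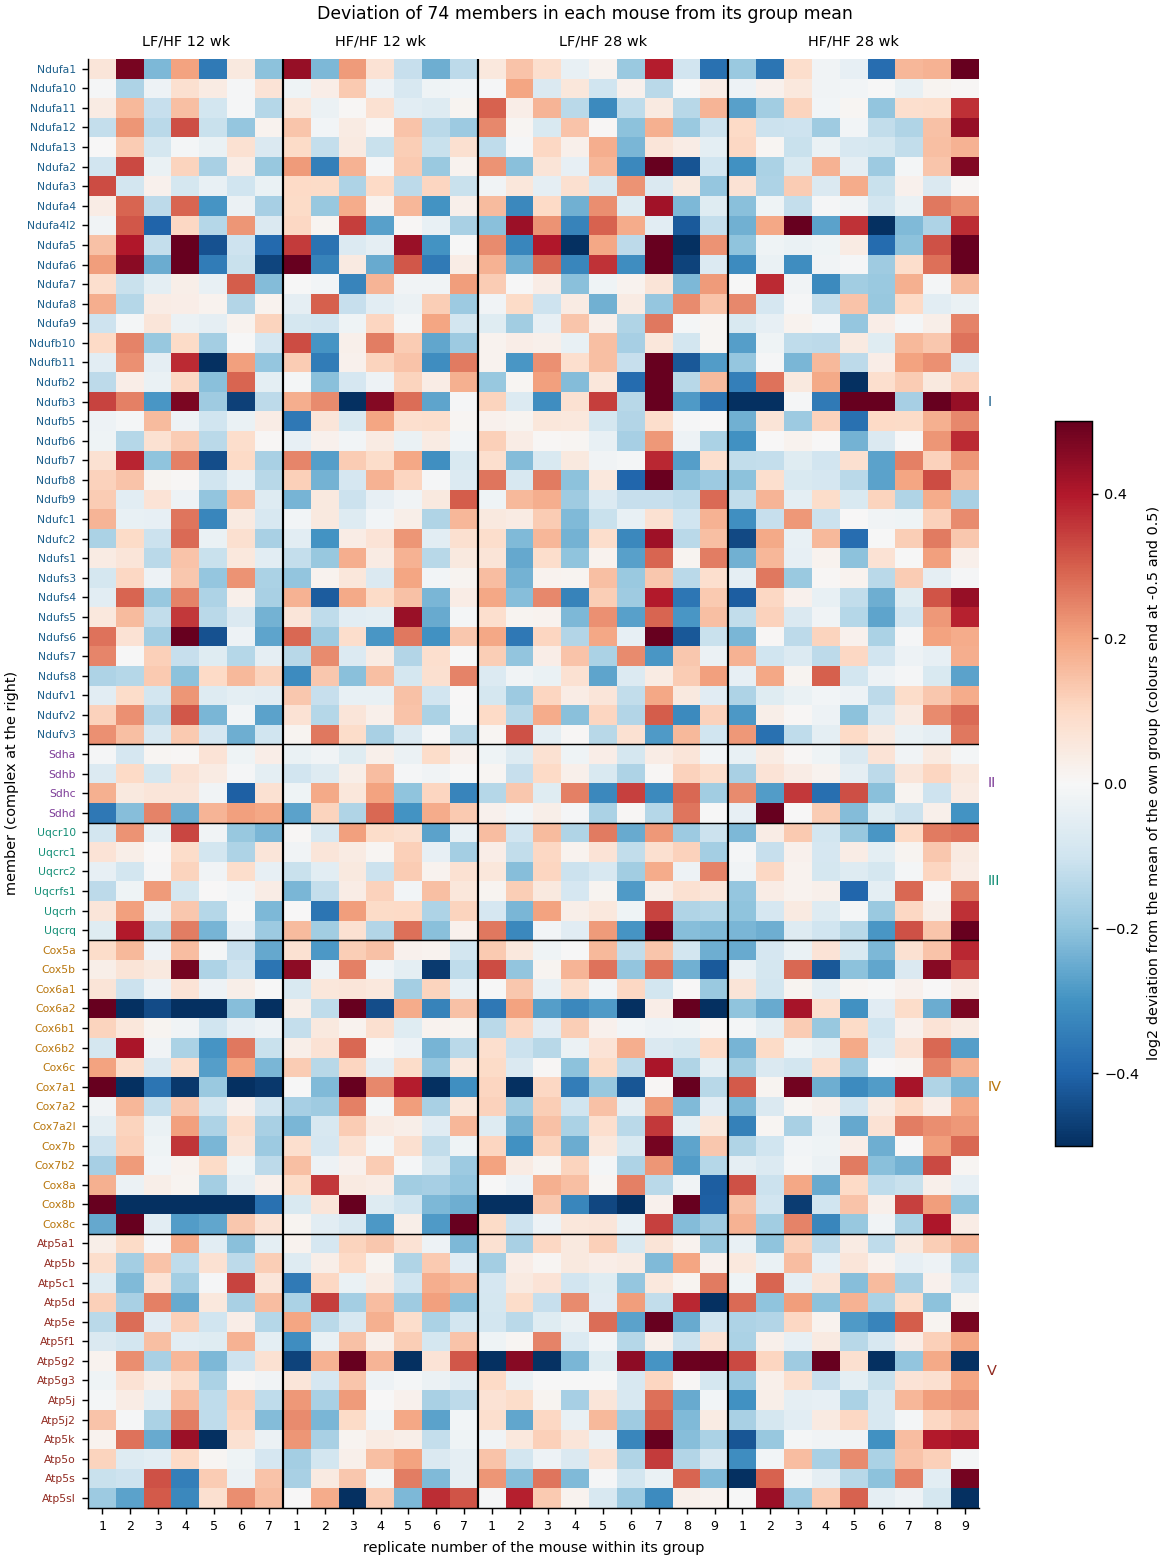
Deviation of 74 of the 75 members (rows, ordered by complex) in each mouse (columns, by group and replicate) from the mean of its own group, in log2 units, with colours ending at -0.5 and 0.5. Red columns mark mice in which most members are high, such as replicate 7 of LF/HF (55 of 75 above the group median) and replicate 9 of HF/HF offspring at 28 weeks (57 of 75). The rows of Cox6a2, Cox7a1 and Cox8b show the 3 mice with muscle markers.

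Genes that act on the complexes without matching the name pattern were described from lists. Of 46 assembly factors 42 were measured, and counts at an unadjusted P under 0.05 are given with their share and that of all probe sets. At 12 weeks 1 was higher (2.38% against 2.41%) and 2 lower (4.76% against 2.32%), and at 28 weeks 0 were higher (0% against 2.40%) and 3 lower (7.14% against 2.73%). With age 5 were higher (11.9% against 6.17%) and 2 lower (4.76% against 6.02%) in LF/HF, and 1 higher (2.38% against 3.32%) and 2 lower (4.76% against 3.88%) in HF/HF offspring. At 28 weeks 29 of the 42 were lower in HF/HF offspring, with a median of -0.073. The smallest P was that of Coa6, which helps to deliver copper to complex IV, with age in LF/HF offspring. It ranged from 5.88 to 6.42 (median 6.14) at 12 weeks and from 5.99 to 7.00 (median 6.71) at 28 weeks, which overlapped. It rose by 0.49 ± 0.121 (SE) (P = 0.000272, adjusted p = 0.0404, exact permutation p = 0.00699), with 0.57 in the first and 0.41 in the second array series, while in HF/HF offspring the difference was 0.16 (adjusted p = 0.87). The difference between these age effects was -0.33 (adjusted p = 0.974).

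Ndufaf6, an assembly factor of complex I, ranged from 5.09 to 5.23 at 12 weeks and from 5.26 to 5.87 at 28 weeks in LF/HF offspring. In HF/HF offspring it ranged from 5.13 to 5.60 and from 4.92 to 5.64. Thus the LF/HF mice did not overlap between the ages, as for 0.189% of all probe sets in this direction, and the HF/HF mice did. The age difference in LF/HF offspring was 0.34 ± 0.105 (adjusted p = 0.13, exact permutation p = 0.000787), and the difference of the diet effects was -0.37 ± 0.149 (adjusted p = 0.974). Sco1, a copper chaperone of complex IV, was at -0.27 (P = 0.0207, exact permutation p = 0.0392) with the parental diet at 28 weeks, with -0.42 in the first and -0.15 in the second array series and a limma P of 0.0687 without HF/HF replicate 1. Coa4, another assembly factor, had a smaller P in this comparison, at -0.26 (limma P = 0.0137, exact permutation p = 0.0307). It was at -0.064 in the first and -0.43 in the second array series. Of 7 genes listed as subunits outside the pattern 5 were measured: Cox4i1, Cox4i2, Cyc1, Cycs and Atpif1. Cycs (cytochrome c) and Atpif1 (the inhibitor of ATP synthase) are not subunits of the complexes. Cox4i2, the hypoxia-responsive form of subunit 4, was at -0.25 with the parental diet at 28 weeks (exact permutation p = 0.039). For the difference of the diet effects it was at -0.33 (limma P of 0.0269, and 0.0511 at most without LF/HF or HF/HF replicate 5 of 12 weeks). Its levels were low, at 2.04 to 2.76 in LF/HF offspring of 28 weeks, below the array medians of 3.07 to 3.23 on the log2 scale. None of the 13 mitochondrially encoded subunits was among the probe sets.

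Regulators of mitochondrial biogenesis and the citric acid cycle, which feeds NADH and succinate to the complexes, were read the same way. Of 17 regulators 16 were measured, with 0 past P at 12 weeks and 2 higher in HF/HF offspring at 28 weeks (12.5% against 2.40%). With age 1 was higher (6.25% against 6.17%) and 2 lower (12.5% against 6.02%) in LF/HF, and 2 higher (12.5% against 3.32%) in HF/HF offspring. Ppargc1b and Pprc1, coactivators of the PGC-1 family, differed by 0.26 and 0.29 with the parental diet at 28 weeks (exact permutation p = 0.0224 and 0.0276) and by -0.33 and -0.31 with age in LF/HF offspring (exact permutation p = 0.0244 and 0.0342). Both comparisons hold the LF/HF offspring of 28 weeks, so they are not separate observations. For diet at 28 weeks no probe set had an adjusted p below 0.916 (limma). Pprc1 was at 0.22 in the first and 0.42 in the second array series at 28 weeks, and with age in LF/HF offspring at -0.070 and -0.57. The limma P was at most 0.083 for Ppargc1b at 28 weeks without HF/HF replicates 1 or 8 or LF/HF replicates 2, 3, 7 or 9, and for Pprc1 0.051 without LF/HF replicate 9 of 28 weeks and 0.0504 with age without LF/HF replicate 4 of 12 weeks. Esrrg, an estrogen-related orphan nuclear receptor, differed with age by 0.39 in LF/HF and 0.41 in HF/HF offspring (exact permutation p = 0.0142 and 0.0406), the latter with 0.61 in the first and 0.11 in the second array series. Of the factors whose motifs were searched, Nrf1, Gabpa, Yy1 and Esrra had no P under 0.05. Esrrg, an estrogen-related receptor like Esrra, passed it with age, as given above. So did Esrrb, another such receptor, in HF/HF offspring, at 0.23 (exact permutation p = 0.0459). It no longer passed without any of 14 mice taken singly. Levels of Esrrb in HF/HF offspring were low, at 1.68 to 2.10 (12 weeks) and 1.86 to 2.67 (28 weeks). They lay below the array medians of 3.07 to 3.23 on the log2 scale. Those of Esrrg in HF/HF offspring of 12 weeks, at 2.75 to 3.61, spanned these medians. Ppargc1a was at 0.29 with age in HF/HF offspring (adjusted p = 0.7). Of 14 genes of the citric acid cycle 13 were measured, with 1 lower at 12 weeks (7.69% against 2.32%) and 0 past P at 28 weeks or with age in HF/HF offspring. With age in LF/HF offspring 2 were higher (15.4% against 6.17%) and 1 lower (7.69% against 6.02%). The gene lower at 12 weeks was Idh3a, at -0.29 with all mice, -0.20 without those with muscle markers, and -0.43 and -0.20 in the first and second array series.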

How the data were processed

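Liver RNA of 32 mice was measured, grouped by the sample labels. In the MADMAX pipeline the authors applied robust multichip average normalization, kept 1 probe set for each Entrez gene and deposited linear intensities. Tool versions and the genome build are not given in the sources used here. Columns of fold changes, P and q values hold the comparisons of the authors and were not used, and 0 sample columns remained unassigned. A second value table held the same intensities, and array names were read as 2 series.

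The log2 of each intensity was fitted in R 4.3.3 with limma 3.58.1, 1 mean per group over 32 arrays and eBayes with an intensity trend, for 5 comparisons (diet at each age, age in each diet group, difference of the diet effects), with no filter. The study described a paired test, but the pairs are not given, so mice were compared as independent. P values were adjusted over 21115 probe sets by Benjamini-Hochberg. Single genes were also tested by exact permutation of the mice. The number of mice limits the precision, and background signals were not analysed here. The fit was tested on simulated data with known changes.

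Members and lists were chosen with earlier results of these data known. Named were all members past the study criterion or, up to 5 per direction, an unadjusted P under 0.05, core subunits, tissue isoforms, complex II, the members with the highest and lowest mean level in each complex (of which some are only plotted), and up to 3 genes per list (some only counted). Further genes near the threshold and the mice of the co-varying members were named after their values were seen. Promoters are from RefSeq (GRCm38.p6), and 12 members had no promoter window there, among them Cox6a2, Ndufa4l2, Sdhc, Uqcrq, Ndufa2, Cox8c, Ndufs1, Cox6c, Atp5a1, Ndufb9 and Uqcrc2. Protein sequences were not used here. Of the members, 1 entered every fit and count but is not reported singly here or drawn.

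Alternatives were no intensity trend, a fit to the 2 groups compared alone, a block for the replicate number, a filter at the median level, array weights, cyclic loess, other thresholds, each mouse left out, the array series as a block and each series alone, leaving out 3 mice whose mean of 15 muscle markers exceeded the median by over 1 log2 unit, the second value table, Ndufa4 and Ndufa4l2 counted with complex IV, and the members without Atp5s and Atp5sl.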

Additional observations from a re-analysis of the deposited data

Results flagged for a closer look

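Mice far from the others of their group were looked for in 96 checks of a member or a complex mean within a group, of which 12 stood apart, where chance gives about 1 in 20. Of these, 7 were the muscle isoforms in the 3 mice with skeletal muscle markers. In LF/HF replicate 1 of 12 weeks Cox6a2 was at 7.30 (nearest mouse 3.36), Cox7a1 at 7.64 (4.02) and Cox8b at 8.0 (2.61), and the mean of complex IV was 7.29 (6.43). In LF/HF replicate 8 of 28 weeks Cox6a2 was at 5.68 (3.55), Cox7a1 at 5.52 (4.14) and Cox8b at 5.52 (2.66). In HF/HF replicate 3 of 12 weeks Cox8b was at 2.78 (2.19).

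The other mice that stood apart were LF/HF replicate 5 of 12 weeks in the mean of complex V (8.35, nearest 8.42), LF/HF replicate 6 of 12 weeks in Sdhc (8.45, nearest 8.84), LF/HF replicate 8 of 28 weeks in Sdhd (9.15, nearest 8.92) and HF/HF replicate 2 of 28 weeks in Sdhd (9.46, nearest 9.01).

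The effect of the parental diet differed between 12 and 28 weeks, by the test of the difference itself at an unadjusted P under 0.05, for Ndufb6 (-0.25), Ndufaf6 (-0.37) and Cox4i2 (-0.33). None passed the adjustment over all probe sets (limma, adjusted p = 0.974 for each). Cox4i2 was at low levels (2.04 to 2.76 in LF/HF offspring of 28 weeks).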

How the results depend on the processing

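Under every alternative run other than leaving out mice, the median difference of the members moved by less than the spread between mice. This held in all 5 comparisons, and for complexes I and IV with Ndufa4 and Ndufa4l2 counted in complex IV. It says little, since the medians were themselves smaller than that spread. The largest in size was -0.050, beside standard deviations of the member mean of 0.055 to 0.113 within groups. Loss or reversal of a median would thus stay below this limit. The member median changed sign for diet at 28 weeks in the second array series alone (0.016, against -0.088 in the first). Without single mice it ranged from 0.018 to 0.052 (diet at 12 weeks), -0.050 to -0.0095 (diet at 28 weeks), -0.0045 to 0.033 (age in LF/HF), -0.061 to -0.029 (age in HF/HF) and -0.069 to -0.029 (difference of the diet effects).

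Counts of members also changed. The members past the study criterion numbered 0 (diet, 12 weeks), 0 (diet, 28 weeks), 1 (age, LF/HF), 2 (age, HF/HF) and 0 (difference). Without a fold limit these became 1 (12 weeks), 7 (LF/HF), 4 (HF/HF) and 1 (difference), and with an adjusted p 0 in LF/HF and 0 in HF/HF. The first array series alone gave 1 (12 weeks), 3 (28 weeks), 5 (HF/HF) and 6 (difference), and the second 1 (28 weeks), 0 (LF/HF) and 0 (HF/HF). Counts not listed stayed the same, though not always with the same members. With age in LF/HF the first series also gave 1, but that member was lower, and Ndufa5 had a limma P of 0.347 there. Array weights gave 1 (28 weeks), 1 (HF/HF) and 3 (difference), cyclic loess 1 (28 weeks) and 1 (difference), no trend 1 (28 weeks), and only the arrays compared 1 (28 weeks) and 0 (LF/HF). Without the 3 mice with muscle markers there were 2 (28 weeks), 2 (LF/HF) and 3 (difference). Leaving out single mice gave 0 to 2 (12 weeks), 0 to 2 (28 weeks), 0 to 3 (LF/HF), 0 to 3 (HF/HF) and 0 to 5 (difference).

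Members with an unadjusted P under 0.05 numbered 1 (12 weeks), 0 (28 weeks), 7 (LF/HF), 4 (HF/HF) and 1 (difference). The first array series alone gave 6 (28 weeks), 4 (LF/HF), 8 (HF/HF) and 6 (difference), and the second 0 (12 weeks), 1 (28 weeks), 0 (LF/HF), 0 (HF/HF) and 0 (difference), with fewer mice in each. At 12 weeks the first series also gave 1, although Ndufb6 had a limma P of 0.0526 there. The series as a block gave 2 (difference). Array weights gave 2 (12 weeks), 2 (28 weeks) and 5 (difference), cyclic loess 1 (28 weeks) and 2 (difference), no trend 1 (28 weeks), and only the arrays compared 2 (12 weeks) and 2 (28 weeks). Without the mice with muscle markers there were 0 (12 weeks), 4 (28 weeks), 4 (LF/HF) and 4 (difference). Leaving out single mice gave 0 to 4 (12 weeks), 0 to 6 (28 weeks), 2 to 9 (LF/HF), 1 to 7 (HF/HF) and 1 to 6 (difference).

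The replicate number as a block gave 1 (28 weeks) and 0 (LF/HF) members past the study criterion, and 1 (28 weeks) and 3 (LF/HF) with an unadjusted P under 0.05. Whether the numbers pair the mice is not given. Correlations of expression cannot decide it, since paired mice need not be alike in expression. Those of same-numbered mice ran from -0.30 to 0.44, and 2 of 7, 1 of 9, 0 of 7 and 1 of 7 pairs were highest with their own number.

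Reversed differences were all those of muscle isoforms. With age in LF/HF offspring Cox6a2 was 0.68 (second series), 0.40 (without LF/HF replicate 1 of 12 weeks) and 0.11 (without the mice with muscle markers), Cox7a1 was 0.50, 0.40 and 0.21, and Cox8b was 0.69 and 0.37 (the first 2 settings). At 12 weeks Cox6a2 was 0.11 in the second series. Without single mice Cox6a2 ranged from -0.52 to 0.40 and Cox7a1 from -0.39 to 0.40 with age, Cox8b from -0.84 to 0.37 with age, and with diet at 12 weeks Cox6a2 from -0.72 to 0.088 and Cox7a1 from -0.72 to 0.070, the highest values being those without LF/HF replicate 1. For the 48 differences of named genes, 1368 of 1536 values without a single mouse and 454 of 563 under the other alternatives stayed on their side of the threshold, 162 and 100 no longer passed it, and 1 and 3 newly passed it. The latter were all Cox7a1 with diet at 28 weeks (-0.49), without LF/HF replicate 1 of 12 weeks, by exact permutation, with only the arrays compared (P = 0.0265, limma) and in the second series (-0.83). The causes were not tested. Groups held 7 to 9 mice, litters are unknown, and each gene was read by 1 probe set.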
